A study of Rattus norvegicus with 12 samples.

Results

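Transcripts of 10 genes of the simple epithelium were followed in rat lung after inhalation of crystalline nanocellulose (CNC), a rod-like particle obtained from plant cellulose. The genes are 4 keratins (Krt7, Krt8, Krt18 and Krt19), 4 claudins (Cldn3, Cldn4, Cldn7 and Cldn18) and the adhesion genes Cdh1 and Epcam. The members were chosen by gene symbol. They make up 10 of the 30045 symbols counted, and all 10 were among the 15019 genes that passed the count filter. RNA was sequenced from a piece of lung of each of 12 male Fischer 344 rats, bought at 3 months of age, with 6 rats in each group. The control rats breathed air in a whole-body chamber. The other rats breathed CNC, 20 mg/m3, in daily sessions of 6 hours on 5 days of each week until 14 exposures were complete, and lungs of both groups were taken 1 day after the last exposure. Replicate numbers only name a rat, and sharing of cages was not analysed here. Library totals ran from 8693259 to 16603697 counts, and levels are given as CPM, that is counts scaled to library size with TMM factors, so a level can be compared between rats and not between genes of different length.

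Keratins 7 and 8 are type II and keratins 18 and 19 type I intermediate filament proteins, and a filament of simple epithelium is built from pairs of a type I and a type II chain. Claudins are the membrane proteins that form tight junction strands, and in the alveolus Cldn3, Cldn4 and Cldn18 are the claudins best known for setting permeability to ions and water. E-cadherin, the product of Cdh1, joins neighbouring cells at adherens junctions, and Epcam is a surface glycoprotein that binds claudins and is cut by the protease matriptase. After alveolar injury, type 2 cells can pass through a transitional state high in Krt8, and often in Krt7, Krt19 and Cldn4, before they flatten into type 1 cells.

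After CNC the tight junction gene Cldn3 rose 1.26-fold and the keratin gene Krt19 fell 1.15-fold. The other 8 genes did not pass the test, among them Krt8, Cldn4 and Cldn18. In the quasi-likelihood test of edgeR, adjusted over all 15019 genes by Benjamini-Hochberg with a threshold of 0.05, 2 of the 10 changed (20%), against 24.6% of all tested genes (13.2% higher and 11.4% lower in CNC). At an unadjusted p under 0.05 there were 3 of 10, against 35.7%. The share among the members was therefore near the background. The groups did not overlap in the same 2 of 10 genes, against 11.5% of all tested genes. The median log2 fold change of the 10 was 0.01, and that of all tested genes was -0.003. In bulk tissue, fewer cells of a type and less RNA per cell cannot be told apart.

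**Figure D1:**
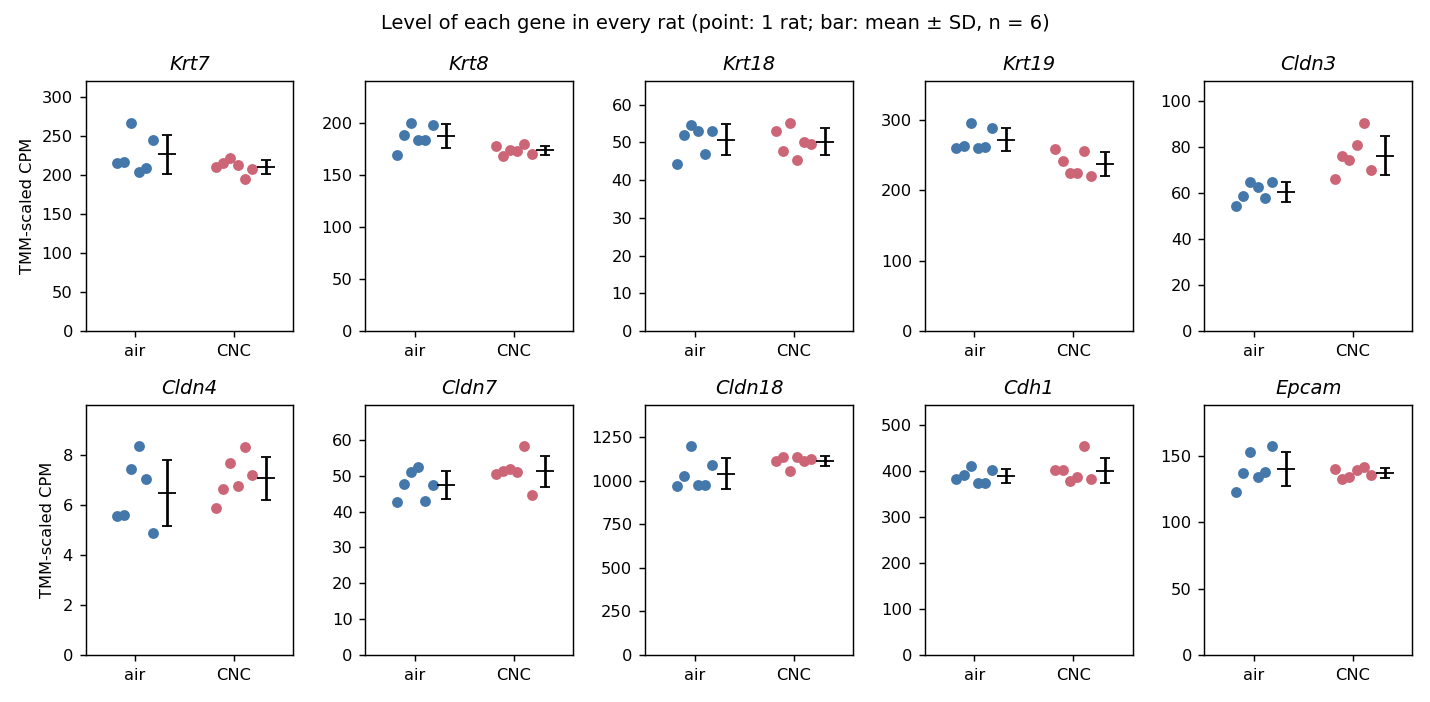
Level of each of the 10 genes in every rat, in TMM-scaled CPM on axes that start at 0, with air rats on the left and CNC rats on the right of each panel (points are rats, bars the mean and SD, n = 6). All 6 CNC rats lie above the air rats for Cldn3 and below them for Krt19, and in the other 8 panels the groups overlap.

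Among the keratins, Krt19 was the one that passed the test. In air rats Krt19, the smallest keratin and one that lacks most of the tail domain, had a lowest, median and highest level of 260.2, 262 and 296 CPM, and in CNC rats of 219.8, 232 and 258 CPM. Every CNC rat lay below every air rat, although the gap between the groups was narrow. The mean level was 272 ± 16.1 CPM (SD, n = 6) in air rats and 237 ± 17.1 CPM (n = 6) in CNC rats. Krt19 fell by 0.20 on the log2 scale (SE 0.05, 95% interval -0.30 to -0.09, edgeR adjusted p = 0.00919), which is a change of -12.7%. In RefSeq the Krt19 gene overlaps the long noncoding RNA gene LOC102554449, which held 1 to 8 counts per library, and the strand setting of the counting is not given in the sources used here.

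Krt8, the type II keratin used to name the transitional state, lay at 169.8, 186 and 200.3 CPM (lowest, median and highest) in air and at 168, 174 and 180.0 CPM in CNC. All 6 CNC rats lay below the air median, and 1 of them lay below the whole air range. The groups overlapped because of air replicate 1, at 169.8 CPM, and every other air rat lay above every CNC rat. The log2 fold change of Krt8 was -0.11 ± 0.04 (SE; 95% interval -0.19 to -0.03, edgeR adjusted p = 0.0546), a difference of -7.20% just outside the threshold. Krt8 passed the threshold in 6 of 27 other settings, always with a lower level in CNC: with 3 other scalings, the DESeq2 Wald test, limma-voom with quality weights, and without air replicate 1 (edgeR adjusted p = 0.0123).

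Krt7, the other type II keratin of the set, ran from 203.9 to 267 CPM in air, with a median of 215.7, and from 194 to 222 CPM in CNC, with a median of 211. The groups overlapped, and the air rats spread more widely (SD 24.5 against 9.32 CPM). Its log2 fold change was -0.10 ± 0.06 (SE; 95% interval -0.23 to 0.02, edgeR adjusted p = 0.235). Leaving out air replicates 4 and 5, which had the highest summed heart muscle transcripts, took it to -0.17 (edgeR adjusted p = 0.0494). Krt18, the type I partner of Krt8, had a lowest, median and highest level of 44.2, 52.5 and 54.6 CPM in air and 45.4, 49.8 and 55.2 CPM in CNC. The ranges of Krt18 coincided almost completely, and its log2 fold change was -0.01 ± 0.06 (SE; 95% interval -0.14 to 0.11, edgeR adjusted p = 0.912). All 4 keratin estimates were negative, but that of Krt18 turned positive without single rats (up to 0.02).

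All 4 claudin estimates were positive, and Cldn3 was the one that passed. Cldn3 had a lowest, median and highest level of 54.4, 60.7 and 65.1 CPM in air and of 66.2, 75.4 and 90.7 CPM in CNC. The lowest CNC rat, replicate 1, stood just above the highest air rat, and CNC replicate 5 was the highest. The mean was 60.6 ± 4.23 CPM (SD, n = 6) in air rats and 76.4 ± 8.63 CPM (n = 6) in CNC rats. Cldn3 rose by 0.34 ± 0.07 on the log2 scale (SE; 95% interval 0.19 to 0.48, edgeR adjusted p = 0.00185), which is 26.4%. Leaving out any 1 rat kept the log2 fold change between 0.29 and 0.38, with edgeR adjusted p of at most 0.00577.

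Cldn4, which is raised in many models of lung injury, was the most weakly covered gene of the set, with 42 to 109 counts per library. Its levels were 4.87, 6.30 and 8.32 CPM (lowest, median and highest) in air and 5.86, 6.95 and 8.28 CPM in CNC. Every CNC rat lay within the air range, and the log2 fold change of 0.12 ± 0.13 (SE; edgeR adjusted p = 0.546) had a 95% interval from -0.15 to 0.40. This interval spans differences from -10.2% to 32.2%, the widest upper bound among the 8 genes that did not pass, so a change of Cldn4 as large as that of Cldn3 was not resolved at this depth.

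Cldn18, whose lung form seals alveolar junctions, was at 969.7, 1003 and 1197 CPM (lowest, median and highest) in air and at 1054, 1121 and 1139 CPM in CNC. The CNC rats all lay inside the air range because air replicate 3 was the highest of all 12. The log2 fold change was 0.10 ± 0.05 (SE; 95% interval -0.01 to 0.20, edgeR adjusted p = 0.163), and without air replicate 3 it was 0.15 (edgeR adjusted p = 0.0125). In RefSeq the gene overlaps the long noncoding RNA gene LOC134480090. Cldn7, a claudin found along the sides of cells as well as in tight junctions, had 42.8, 47.6 and 52.5 CPM in air and 44.7, 51.2 and 58.2 CPM in CNC. Its groups overlapped, with a log2 fold change of 0.11 ± 0.06 (SE; 95% interval -0.02 to 0.25, edgeR adjusted p = 0.215).

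The promoters of Cldn3, Cldn7, Krt8 and Epcam are shown because these are the members whose RefSeq window holds CACCTG, the E-box known from repressors of the Snail and Zeb families. Their estimates had different signs, and of the 4 genes Cldn3 alone passed the test. Each line gives the 250 bases before the RefSeq start of the gene, 5′ to 3′ on the strand of the gene, with CACCTG or its complement CAGGTG in capitals, and in Epcam also the AP-1 match. Cldn3 lies at chr12:27346548-27346797 on the minus strand and Cldn7 at chr10:55188420-55188669 on the plus strand of GRCr8. Krt8 lies at chr7:135010340-135010589 and Epcam at chr6:12649679-12649928, both on the minus strand.
Cldn3: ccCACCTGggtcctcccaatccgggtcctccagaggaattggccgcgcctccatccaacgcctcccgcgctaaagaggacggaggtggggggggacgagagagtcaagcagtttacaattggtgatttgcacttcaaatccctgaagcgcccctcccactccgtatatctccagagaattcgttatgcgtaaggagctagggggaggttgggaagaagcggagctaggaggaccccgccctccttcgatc
Cldn7: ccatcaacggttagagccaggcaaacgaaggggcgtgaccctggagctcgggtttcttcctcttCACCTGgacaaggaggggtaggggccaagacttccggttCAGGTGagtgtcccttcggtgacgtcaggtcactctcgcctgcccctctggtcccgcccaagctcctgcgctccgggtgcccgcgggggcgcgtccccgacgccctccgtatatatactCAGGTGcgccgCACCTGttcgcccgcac
Krt8: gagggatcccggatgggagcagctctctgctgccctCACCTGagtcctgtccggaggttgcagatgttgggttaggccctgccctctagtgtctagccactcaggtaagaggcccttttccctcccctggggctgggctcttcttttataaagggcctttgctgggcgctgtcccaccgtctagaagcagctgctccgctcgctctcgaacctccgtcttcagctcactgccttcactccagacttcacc
Epcam: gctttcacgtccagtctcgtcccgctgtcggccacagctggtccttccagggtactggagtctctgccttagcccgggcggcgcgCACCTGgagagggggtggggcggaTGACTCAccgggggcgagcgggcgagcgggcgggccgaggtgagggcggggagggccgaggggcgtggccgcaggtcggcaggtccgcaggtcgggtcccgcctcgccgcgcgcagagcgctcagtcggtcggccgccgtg

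Over the full RefSeq window of 300 bases, which runs 50 bases past the start, Cldn3 held 1 such E-box and Cldn7 held 5, searched on both strands. The window was given for 6 of the 10 genes. Krt8 and Epcam held 1 E-box each, while Krt18 and Cldn18 held none, and 18.7% of all 27457 promoter windows held at least 1. Krt8 and Epcam also held 1 AP-1 site each (TGANTCA, 7.33% of windows). None of the 6 held the TEAD motif GGAATG (13.9% of windows) or the grainyhead palindrome AACCGGTT (0.164% of windows). Such a match describes the letters and not binding.

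The adhesion genes did not pass. Cdh1 was at 374, 386 and 411 CPM (lowest, median and highest) in air and at 377, 394 and 453 CPM in CNC. The CNC range began inside the air range, and CNC replicate 5 stood alone at its top. Its log2 fold change was 0.04 ± 0.04 (SE; 95% interval -0.05 to 0.13, edgeR adjusted p = 0.546). Epcam was at 122, 137 and 157 CPM in air and at 133, 138 and 141 CPM in CNC. The 6 CNC rats lay in a narrow band inside the air range, with a log2 fold change of -0.03 ± 0.05 (SE; 95% interval -0.14 to 0.08, edgeR adjusted p = 0.753). The coefficient of variation was smaller in CNC than in air for 7 of the 10 genes, a difference that was not tested.

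**Figure D2:**
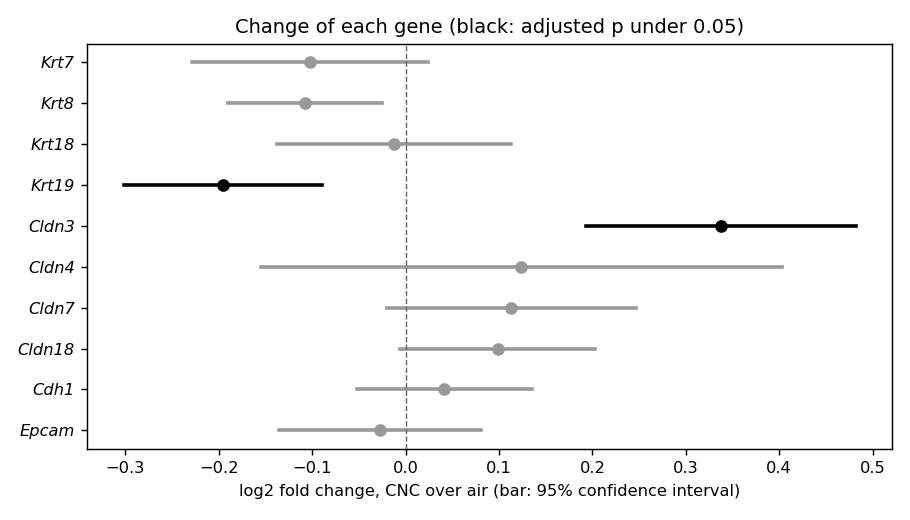
Log2 fold change of each gene, CNC over air, with its 95% interval from edgeR; black marks an adjusted p under 0.05 and grey the others. Krt19 lies to the left of 0 at -0.20 and Cldn3 to the right at 0.34, while the intervals of the grey genes other than Krt8 cross 0.

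Ratios within a library do not depend on the scaling between libraries, and they are given as descriptions. Relative to Epcam, Cldn3 was 1.28 times as high in CNC as in air, and all 6 CNC rats lay above the air rats. By the ratio to Epcam 1 of the 9 other genes, Cldn3, lay above without overlap, and 0 lay below without overlap. Of all other tested genes 5.55% lay above without overlap by this ratio, and the share below is not given here. The ratio of Cldn3 to Krt19 was 1.44 times as high in CNC. Its lack of overlap follows from those of Cldn3 and Krt19 and adds nothing to them. Krt8 to Krt18, a filament pair, differed by -0.09 on the log2 scale and overlapped.

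Summed transcripts of alveolar cell markers differed between the groups. Summed over 12 markers, alveolar type 2 cells, which secrete surfactant, ran from 23899 to 31188 CPM in air and from 31830 to 38990 CPM in CNC. Alveolar type 1 cells, the flat gas-exchange cells, ran from 11112 to 13622 CPM in air and from 10183 to 10686 CPM in CNC, also over 12 markers. The exact permutation p was 0.00216 for each (2-sided, adjusted over 9 lists p = 0.00487), the smallest that 6 rats against 6 allow. Divided by the geometric mean of the type 2 markers, 8 of the 10 genes were lower in every CNC rat than in any air rat, as were 35.3% of all tested genes. The type 2 mean itself was 0.37 higher in CNC on the log2 scale, without overlap, so that a gene at an even level has a lower ratio. The exceptions were Cldn3, at 0.974 of its air value, and Cldn4, at 0.857, both with overlap. Divided by the type 1 markers instead, Cldn3, Cldn18, Cdh1 and Epcam were higher in every CNC rat than in any air rat, as were 20.3% of all tested genes, and the other 6 overlapped. The type 1 mean itself differed by -0.22 between CNC and air, without overlap, and of these 4 genes Cldn18, Cdh1 and Epcam did not pass the test of their own level. What part the difference in type 2 and type 1 markers had in the results for Cldn3 and Krt19 was not tested.

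**Figure D3:**
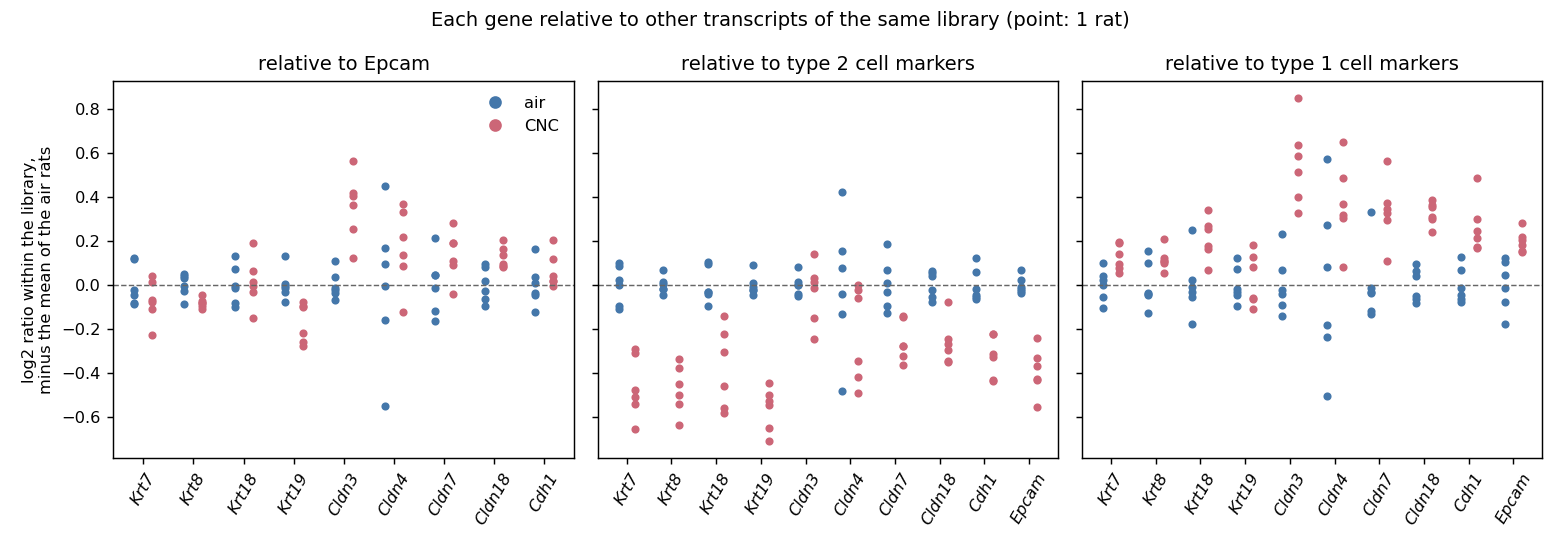
Log2 ratio of each gene to Epcam, to the mean of the type 2 cell markers and to the mean of the type 1 cell markers within each library, minus the mean of the air rats (points are rats). Relative to type 2 markers, Cldn3 sits around 0 in CNC rats while 8 of the genes lie below all air rats, against 35.3% of all tested genes.

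Other markers moved as well. Of the tested markers, 83.3% changed for type 2, 75% for type 1, 62.5% for club and 11.1% for ciliated cells. Among all tested genes 24.6% changed. Of 12 tested type 2 markers 10 rose and 0 fell (median log2 fold change 0.38), with the mucin Muc1 at 0.75, the surfactant proteins Sftpa1 at 0.63 and Sftpc at 0.39, the phospholipid enzyme Lpcat1 at 0.42 and the protease Napsa at 0.37. Of 12 type 1 markers 0 rose and 9 fell (median -0.20), with Igfbp2 at -0.60, the caveolar protein Cav1 at -0.37, the growth factor Vegfa at -0.26, Clic5 at -0.22, Hopx at -0.20 and Ager at -0.19. The call of Ager was lost without air replicate 2, 3 or 6 or CNC replicate 1, 2, 3 or 5 (edgeR adjusted p from 0.0509 to 0.0695). Of 8 club cell markers 1 rose (Hp, 1.40) and 4 fell, namely the secretoglobin Scgb1a1 (-0.27), Aldh1a1 (-0.26), Aldh3a1 (-0.47) and Bpifa1 (-3.47). The Bpifa1 estimate followed air replicate 4, whose 65.7 CPM compared with 0.864 to 10.6 CPM in the other air rats. Its call was lost without air replicate 4 or CNC replicate 1, 2 or 4 (edgeR adjusted p from 0.0503 to 0.128), and that of Aldh1a1 without air replicate 2, 4 or 5 or CNC replicate 1, 2 or 4 (0.0547 to 0.0611). That of Aldh3a1 was lost without air replicate 3, 4 or 6 or any CNC rat but replicate 5 (0.0588 to 0.0976), and that of Scgb1a1 without air replicates 4 and 5 together (0.0684). Of 9 tested ciliated cell markers (median log2 fold change 0.02) 1 fell, the tubulin-binding gene Tppp3 (-0.37). Foxj1, the master factor of ciliation, had a log2 fold change of 0.02 (edgeR adjusted p = 0.943).

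Non-epithelial markers also differed. Of the tested endothelial markers 90% changed and of the phagocyte markers 80%, against 24.6% of all tested genes. Of 10 endothelial markers 9 fell, among them Cdh5 (log2 fold change -0.37), Tek (-0.30), Pecam1 (-0.29) and Tie1 (-0.22), and of 10 tested phagocyte markers 7 rose and 1 fell, with S100a9 at 1.92, Cd68 at 1.02, Itgax at 0.73 and Lyz2 at 0.69. The one that fell was Csf1r (-0.18), a call lost without air replicate 1, 4, 5 or 6 or CNC replicate 2, 3 or 6 (edgeR adjusted p from 0.0511 to 0.0785). Summed endothelial markers ran from 5236 to 6092 CPM in air and 4434 to 4995 CPM in CNC, and phagocyte markers from 14485 to 19213 CPM and 23726 to 29470 CPM, with Marco at 0 counts in all libraries (exact permutation p = 0.00216 for each). Summed club cell markers ran from 5338 to 7138 CPM in air and 4829 to 6145 CPM in CNC (exact permutation p = 0.0281). Summed ciliated markers ran from 746 to 925 CPM in air and 622 to 849 CPM in CNC (exact permutation p = 0.0216). The ciliated sum was lower although 1 of its 9 tested genes changed and their median log2 fold change was 0.02. The exact permutation p of the club sum was 0.0519 without air replicate 2 or 4 and 0.1 without air replicates 4 and 5 together, and that of the ciliated sum was 0.0857 when the same 2 air rats were left out and 0.0571 when CNC replicates 3 and 6 were. Basal cell, mesothelial and heart muscle sums overlapped between the groups (exact permutation p = 0.478, 0.918 and 0.234), and 0 of their 2, 7 and 11 tested genes changed. The mesothelium, which lines the lung surface and is rich in Krt7, Krt8, Krt18 and Krt19, varied from 41.9 to 225 CPM in air and 55.3 to 253 CPM in CNC. Its marker Msln had a log2 fold change of -0.01 (edgeR adjusted p = 0.989), which ran from -0.35 to 0.27 without single rats. Cldn3 and Krt19 passed with a mesothelium covariate. What part mesothelial or other cells had in the 2 changes was not tested. The part of endothelial cells in the lower type 1 markers, Cav1 among them, was not tested either.

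Pairs of these genes were also compared between rats of a group. After the group means were removed, 41 of the 45 pairs of members had a positive Pearson r of log2 CPM over the 12 rats, with a median of 0.50 and a range from -0.21 to 0.94. These values share libraries and scaling and are a description. The share of positive pairs over all tested genes is not given here, so the count is not read as particular to the members. Krt8 and Epcam were the closest pair (r = 0.94), and Epcam was also the closest of 14685 compared genes to Krt8, followed by Mccc2 (0.94) and Chmp2b (0.93). Cldn18 was closest to Lamb3, a laminin chain (0.93), Plp2 (0.91) and LOC100911923 (0.90).

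The remaining keratins and claudins were mostly scarce. Of the other keratins that were tested 25% changed, against 24.6% of all tested genes. Of 19 other keratins counted, 8 were tested, where Krt79 rose (log2 fold change 0.33) and Krt4 fell (-0.95). Krt4, a keratin of stratified mucosa, had a mean of 1.15 CPM in air, and its call was lost without air replicate 2 or 6 or CNC replicate 3, 4, 5 or 6 (edgeR adjusted p from 0.0564 to 0.0828). Krt5, the basal cell keratin, had 15 counts over the air libraries and 5 over the CNC libraries and was not tested. Krt17 had 19 and 12 counts and was not tested.

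Of 16 other claudins 10 were tested, 1 rose and 2 fell (30% changed, against 24.6% of all tested genes). Cldn10, a claudin of ion-selective paracellular pores, had a lowest, median and highest level of 8.72, 11.6 and 13.4 CPM in air and of 18.9, 24.6 and 27.6 CPM in CNC. The groups lay well apart. Cldn10 rose 2.15-fold (log2 fold change 1.11 ± 0.10 SE, edgeR adjusted p = 3.28e-06). Cldn5, the claudin of endothelium, fell from 398 ± 38.7 to 299.98 ± 36.1 CPM (log2 fold change -0.41). Cldn8 fell as well (-0.31), a call lost without air replicate 1, 2 or 6 or CNC replicate 1, 4, 5 or 6 (edgeR adjusted p from 0.0655 to 0.1005).

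In the plaque and membrane of the tight junction 3 of 18 tested genes rose and 4 fell (median log2 fold change -0.02). The share changed was 38.9%, against 24.6% of all tested genes. The scaffold gene Tjp3 rose from 29.1 ± 2.40 to 44.5 ± 5.75 CPM (log2 fold change 0.62), without overlap. Lsr, which organizes tricellular junctions, rose by 0.17, and occludin (Ocln) by 0.13. The scaffold gene Tjp1 fell by 0.14, Magi3 fell by 0.17, and the polarity gene Pard3 fell by 0.17. The call of Ocln was lost without air replicate 1, 2, 4, 5 or 6 or CNC replicate 1, 2, 4 or 5 (edgeR adjusted p from 0.0608 to 0.1103). That of Tjp1 was lost without air replicate 1, 2, 3 or 6 or any CNC rat but replicate 6 (0.0509 to 0.0927), and that of Magi3 without air replicate 1, 2, 3 or 6 or any CNC rat but replicate 2 (0.0511 to 0.0772).

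Of 13 tested adherens junction genes 1 rose and 5 fell (median log2 fold change -0.09). The share changed was 46.2%, against 24.6% of all tested genes. Vinculin (Vcl), which links the junction to actin, fell from 417 ± 9.26 to 371 ± 7.25 CPM (log2 fold change -0.17), and plakoglobin (Jup) fell by 0.15, both without overlap. The catenins Ctnna1 and Ctnnd1 fell by 0.09 each and the afadin gene Mllt4 by 0.17, while the nectin Pvrl2 rose by 0.14. As summed endothelial markers were also lower in CNC, these 5 falls cannot be assigned to the epithelium, and the part of each cell type was not tested. Beta-catenin (Ctnnb1), which binds the tail of E-cadherin, had a log2 fold change of 0.04 (edgeR adjusted p = 0.335). The call of Ctnnd1 was lost without air replicate 1, 2, 3 or 6 or any 1 CNC rat (edgeR adjusted p from 0.0513 to 0.0922), and that of Ctnna1 without air replicate 1, 3 or 6 or CNC replicate 1, 2, 4 or 6 (0.0513 to 0.0701). That of Mllt4 was lost without air replicate 2, 3 or 6 or CNC replicate 4 or 6 (0.0527 to 0.0583), and that of Pvrl2 without air replicate 1 or 5 or CNC replicate 4 or 5 (0.0505 to 0.0551).

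Of 11 desmosomal genes, whose plaques anchor keratin filaments, 4 rose and 1 fell (median log2 fold change 0.01). The share changed was 45.5%, against 24.6% of all tested genes. The desmosomal cadherins Dsc2 (0.57) and Dsg2 (0.28), envoplakin (Evpl, 0.17) and plakophilin Pkp2 (0.19) rose, and Pkp1 fell by 0.57. Desmoplakin (Dsp), which ties keratins to the plaque, had a log2 fold change of -0.04 (edgeR adjusted p = 0.746). Dsp passed in opposite directions under 2 other settings, at 0.39 with a covariate of circadian clock genes (edgeR adjusted p = 0.0386) and at -0.14 without air replicates 4 and 5 (0.0452). The call of Pkp2 was lost without air replicate 1, 2, 4 or 5 or CNC replicate 1, 2, 3 or 6 (edgeR adjusted p from 0.0505 to 0.0865).

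Of 8 tested partners of Epcam and genes of the matriptase system 4 rose and 1 fell (median log2 fold change 0.16). The share changed was 62.5%, against 24.6% of all tested genes. Matriptase (St14) rose by 0.33, from 53.7 ± 3.88 to 67.5 ± 5.89 CPM, and its inhibitors Spint2 and Spint1 rose by 0.23 and 0.19. The hyaluronan receptor Cd44 rose by 0.30, and the tetraspanin Tspan8 fell by 0.20.

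**Figure D4:**
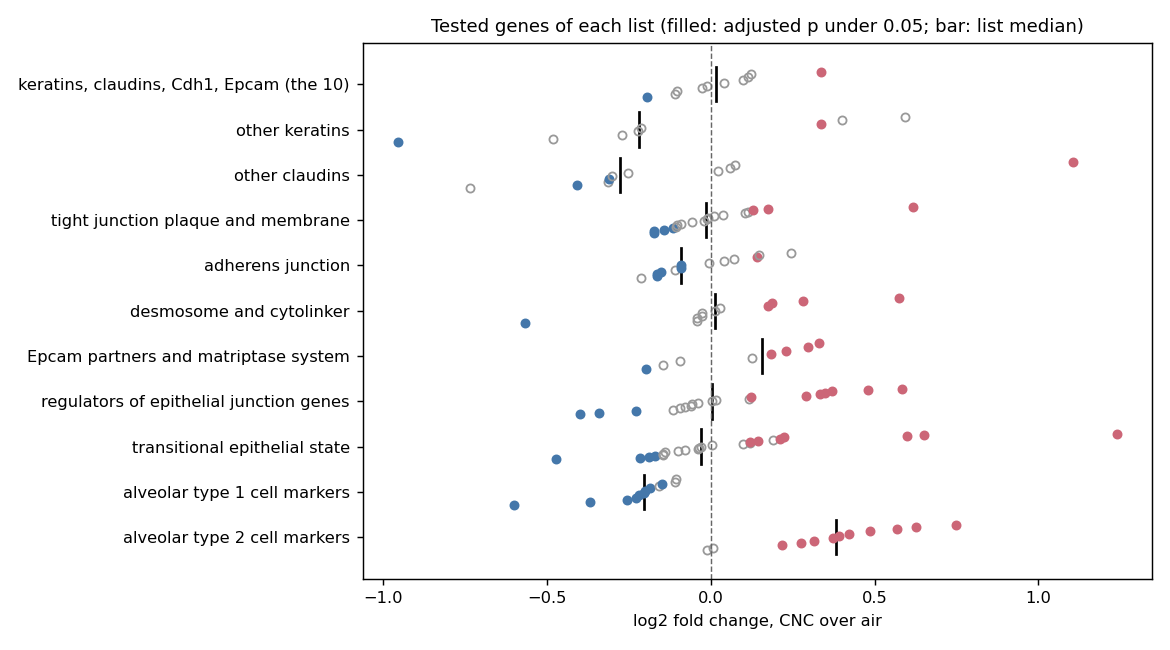
Log2 fold change, CNC over air, of every tested gene of the 10 members and of each related list (filled points passed an adjusted p of 0.05, open points did not, black bars are list medians). Cldn10 at 1.11 and Tjp3 at 0.62 lie to the right of all 10 members. Of the 12 type 2 markers 10 are filled and positive, against 13.2% of all tested genes.

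Among regulators of epithelial junction genes 7 of 19 tested rose and 3 fell (median log2 fold change 0.005). The share changed was 52.6%, against 24.6% of all tested genes. The repressors Zeb1 (-0.23), Snai1 (-0.34) and Snai2 (-0.40) fell. Zeb1 fell from 105 ± 3.85 to 89.5 ± 2.85 CPM without overlap. Summed endothelial markers were lower in CNC too, and what part endothelial or other cells had in the falls of the 3 repressors was not tested. Whether the repressors act at the E-boxes shown above was not tested either. The call of Snai1 was lost without air replicate 2 (edgeR adjusted p = 0.0634), and that of Snai2 without air replicate 1, 2, 4 or 6 or any CNC rat but replicate 1 (0.0514 to 0.107). Without air replicates 4 and 5 together the call of Esrp2 was lost (0.0622). The epithelial transcription factors Elf3 (0.58), Elf5 (0.48), Ehf (0.37) and Nkx2-1 (0.35) rose, as did the splicing factors Esrp1 (0.29) and Esrp2 (0.12). Vim, the mesenchymal intermediate filament that leukocytes and endothelium also hold, rose by 0.33. Nkx2-1, the lung lineage factor, rose from 314 ± 28.1 to 399 ± 30.1 CPM without overlap.

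Other genes of the transitional epithelial state went both ways. Of 23 tested genes 7 rose and 4 fell (median log2 fold change -0.03). That is 47.8% changed, against 24.6% of all tested genes. Lgals3, the galectin that macrophages also make in quantity, rose from 246 ± 37.4 to 580.3 ± 67.3 CPM (log2 fold change 1.24, edgeR adjusted p = 6.82e-07). The urokinase receptor Plaur rose by 0.65, the stress cytokine Gdf15 by 0.60, the annexins Anxa2 and Anxa1 by 0.22 and 0.21 and Hif1a by 0.12. The growth factor Hbegf fell by 0.47, the integrin chain Itgb6 by 0.22, the cell cycle inhibitor Cdkn1a by 0.19 and cyclin Ccnd1 by 0.17. Sfn, a state marker, had a log2 fold change of -0.14 (edgeR adjusted p = 0.500), and the growth factor Areg one of -0.10 (0.813).

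In that list the call of Cdkn1a was lost without air replicate 2, 4, 5 or 6 or CNC replicate 2, 3, 4 or 6 (edgeR adjusted p from 0.0555 to 0.0995). That of Itgb6 was lost without air replicate 3, 4, 5 or 6 or CNC replicate 1, 3 or 6 (0.0595 to 0.0714), and that of Hif1a without air replicate 2, 3 or 4 or CNC replicate 1, 2, 5 or 6 (0.0503 to 0.0736). The call of Gdf15 was lost without CNC replicates 3 and 6 together (0.0594). Of the CNC libraries, these had the lowest sums of phagocyte markers and also of type 2 markers. Summed phagocyte and type 2 markers were both higher in CNC rats. The part of either in the rises of Lgals3, Plaur and the annexins was not tested.

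The calls of Cldn3 and Krt19 held in 26 of 27 other settings. The exception was a covariate built from circadian clock genes, with which Cldn3 had a log2 fold change of 0.29 (edgeR adjusted p = 0.285) and Krt19 one of -0.04 (0.868), and 0 of the 10 genes passed by edgeR, against 4.58% of all tested genes. At an unadjusted p under 0.05 with the covariate there were 0 of the 10, against 20% of all tested genes. Clock genes differed between the groups: 8 of 15 rose and 5 fell (86.7% changed, against 24.6% of all tested genes). Among them Bhlhe41 had a log2 fold change of 0.98, Bhlhe40 0.59, Npas2 -0.79, Arntl -0.96, Cry1 -0.33, Clock -0.23 and Ciart -0.20. All 5 that fell are named, while the other clock genes that rose are counted and not named. The call of Cry1 was lost without air replicate 2 or 6 or CNC replicate 4 (edgeR adjusted p up to 0.0653), that of Clock without air replicate 1, 2, 3 or 6 or CNC replicate 4 or 6 (up to 0.0597) and that of Ciart without air replicate 1, 2, 3 or 6 or CNC replicate 1, 2 or 5 (up to 0.117). Of the 82 calls named here 71 were lost with the covariate, and those kept were Lgals3, Cldn10, Tspan8, Muc1, Lpcat1, Hp, Bpifa1, S100a9, Cd68, Lyz2 and Bhlhe41. The covariate did not overlap between the groups, and standard errors with it were a median of 2.05 times as large, so that exposure and the clock difference cannot be told apart for these genes. Clock genes are themselves part of the covariate, so their own calls lost or kept with it are not a separate result.

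**Figure D5:**
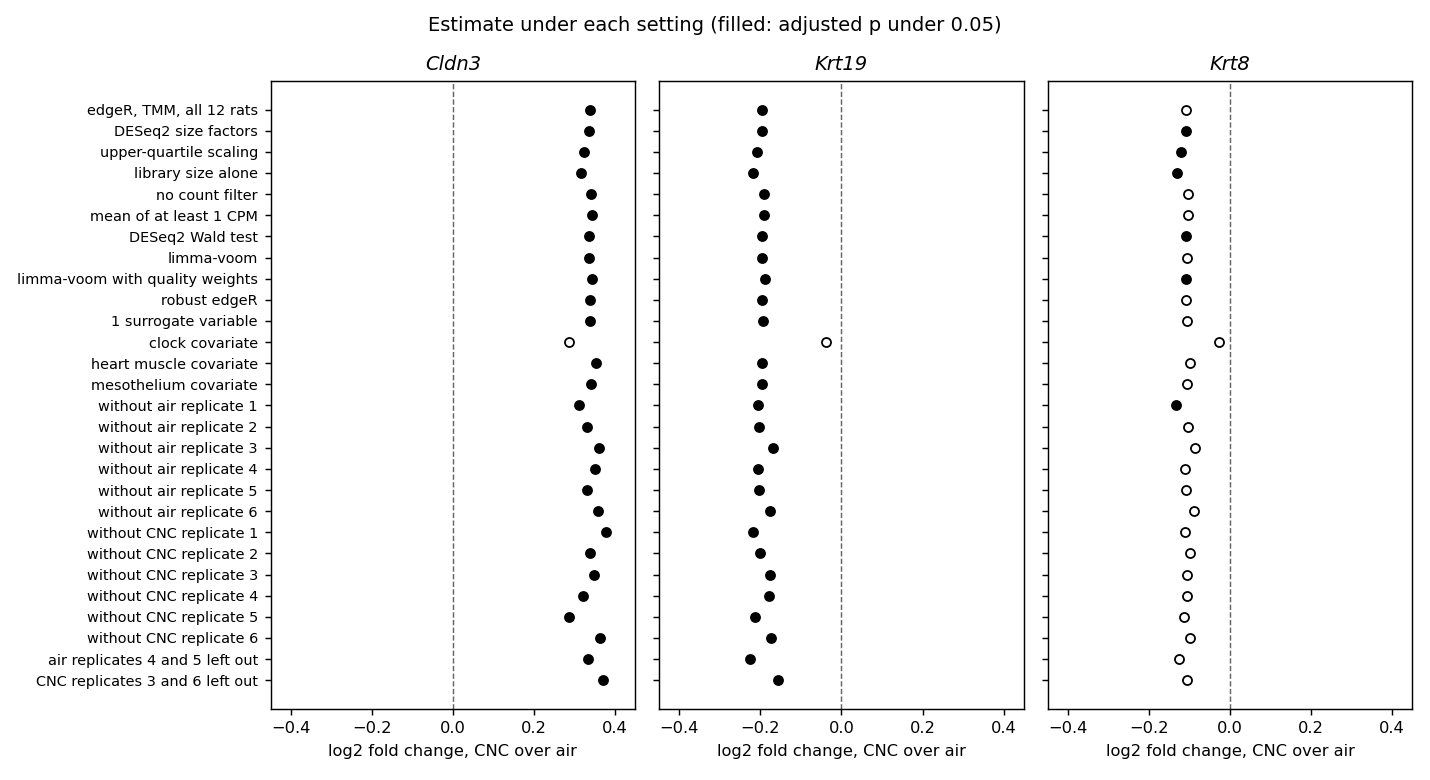
Log2 fold change of Cldn3, Krt19 and Krt8, CNC over air, under each setting, with filled points for an adjusted p under 0.05. Cldn3 and Krt19 are filled at every setting but the clock covariate, where Krt19 moves to -0.04, and Krt8 stays between -0.13 and -0.03.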

How the data were processed

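RNA was sequenced from a piece of lung of each of 12 rats, 6 per group. Per the labels' protocols, stranded polyadenylated RNA libraries were amplified over 12 PCR cycles. Tools listed in the submitters' processing notes, with no role stated, include HISAT2 2.1.0, HTSeq 0.11.2 and Trimmomatic 0.35, as well as SAMtools 1.8, bcl2fastq 2.19 and Cufflinks. The authors deposited whole-number counts per gene symbol without normalization, with the annotation and strand setting not given in the sources used here. Amplified reads are not independent molecules, so depth gives counting error only.

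Genes were kept by filterByExpr (minimum count 10, minimum total 15), scaled by TMM and tested in R 4.3.3 with edgeR 4.0.16 (glmQLFit and glmQLFTest), CNC against air, with Benjamini-Hochberg adjustment over 15019 genes and a threshold of 0.05. Standard errors were taken as |log2 fold change|/sqrt(F). Log2 CPM use a prior count of 2. The procedure was tested on simulated data with known changes. It recovered 54.2% of 1.25-fold, 68% of 1.5-fold and 98% of 2-fold changes, and 8 of its 164 calls were false. Changes under 1.25-fold were not simulated. No libraries looked like repeats: over 30 pairs within a group the chi-square per degree of freedom was 2.69 to 8.36. Summed markers were compared by a 2-sided exact permutation test over all divisions of the 12 rats into 6 and 6. Promoter windows of 6 members came from a RefSeq table of GRCr8, and 19073 symbols matched RefSeq names.

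The members, the gene lists and the settings were chosen with earlier results of these data known. All members are named, with up to 4 changed genes of smallest adjusted p in each list, 20 further genes named with any result, and the 3 genes most like Krt8 and Cldn18. Genes outside this rule (among them Magi3, Ctnna1, Ctnnd1, Mllt4, Pkp2, Spint1, Snai1, Snai2, Gdf15, Anxa1, Anxa2, Hif1a, Elf3, Ehf, Esrp2, Vim, Aldh3a1, Csf1r, Cry1, Clock and Ciart) were named after their values were seen. A few genes of the lists are counted but not reported singly here. Alternatives were other scalings, filters and thresholds, the DESeq2 1.42.0 Wald test, limma-voom (limma 3.58.1), robust edgeR, 1 surrogate variable (sva 3.50.0), 3 covariates (the first principal component of the clock genes, and means of heart muscle and mesothelial genes), and leaving out rats. Figures used Python 3.11.15 and matplotlib 3.10.9.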

Additional observations from a re-analysis of the deposited data

Results flagged for a closer look

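A single rat stood apart from the other 5 of its group in 19 of 244 groups of values examined (7.79%), where chance gives about 1 in 20. Among the members these were Cldn18 in CNC replicate 3, the lowest at 1054 CPM against 1111 CPM in the next rat, and Cdh1 in CNC replicate 5, the highest at 453 CPM against 401 CPM. The log2 ratio of Cldn7 to Cldn18 was highest in air replicate 4, at -4.21. In junction genes the highest rat was CNC replicate 5 for Tjp3 (55.4 CPM), air replicate 6 for Vcl (434 CPM), air replicate 3 for Pvrl2 (111 CPM) and for Krt79 (31.5 CPM), and CNC replicate 4 for Tspan8 (169.8 CPM). Air replicate 1 was lowest for St14 (46.6 CPM) and Esrp1 (42.6 CPM), and CNC replicate 5 was highest for Esrp1 (66.1 CPM). Among cell type and clock genes, CNC replicate 1 was highest for Msln (83.5 CPM) and for the summed mesothelium markers (253 CPM), CNC replicate 3 lowest for Clic5 (2063 CPM), air replicate 4 highest for Bpifa1 (65.7 CPM) and lowest for Arntl (34.4 CPM), and air replicate 1 highest for Pecam1 (395 CPM). The summed basal cell markers were highest in air replicate 4 (15.9 CPM) and in CNC replicate 5 (10.8 CPM).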

How the results depend on the processing

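The count of changed genes, 3691, was 688 with the clock covariate and 2146 at an adjusted p of 0.01. The count of changed members, 2, was 0 with the clock covariate. The 49 changed genes of the related lists were 6 with the clock covariate and 29 at an adjusted p of 0.01. Among the members the clock covariate gave log2 fold changes of 0.29 for Cldn3 (edgeR adjusted p = 0.285), -0.039 for Krt19 (0.868), 0.069 for Krt7, 0.079 for Krt18, -0.31 for Cldn4 and 0.065 for Epcam. Krt18 was 0.010 with the heart muscle covariate, and from -0.047 to 0.015 when single rats were left out. Epcam was from -0.061 to 0.0078 when single rats were left out, Cldn18 from 0.082 to 0.15 and Krt8 from -0.13 to -0.086. Krt7 was -0.17 without air replicates 4 and 5. Krt8 passed at -0.11 with DESeq2 size factors, -0.12 with upper-quartile scaling, -0.13 with library size alone, -0.11 by the DESeq2 Wald test and -0.11 by limma-voom with quality weights. Other genes turned in direction with the clock covariate: Tjp1 to 0.092, Dsp to 0.39 (edgeR adjusted p = 0.0386), Cldn8 to 0.068, Magi3 to 0.14, Mllt4 to 0.13, Foxj1 to -0.33, Clock to 0.19, Cry1 to 0.20 and Msln to 0.82. Clock and Cry1 are themselves among the genes of that covariate. Areg was 0.099 by limma-voom with quality weights, 0.016 with the heart muscle covariate, 0.031 without air replicates 4 and 5, and -0.22 to 0.064 without single rats. Foxj1 was -0.003095 with library size alone, -0.009888 without CNC replicates 3 and 6, and -0.068 to 0.15 without single rats. Msln was 0.0016 by limma-voom, 0.23 without CNC replicates 3 and 6, and -0.35 to 0.27 without single rats. The log2 ratio of summed basal markers was 0.070, and of heart muscle 0.061, without air replicates 4 and 5, and that of mesothelium was 0.24 without CNC replicates 3 and 6 and -0.53 to 0.32 without single rats. Calls named in the text as lost without a single rat were also lost under 1 to 8 of the other settings. Causes of these shifts were not tested. Settings that left out rats also had a smaller number of rats, and a stricter threshold by itself passes fewer genes. No paired analysis was possible because the animal numbers are not shared between the groups. Among the 10 members Cldn4 had the fewest counts and the widest interval.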
